A study of Mus musculus with 8 samples.

Results

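The Wnt ligands, receptors and modulators were followed in sorted mouse mammary tumor cells. The group was a hand-written list of 55 genes, and a gene was kept as a member if it had 10 or more counts in at least 2 of the 8 libraries, which left 49 members among 53697 genes in the table. Of these 49, 44 also passed the filter on low counts that preceded the tests (edgeR's filterByExpr), and 40 had at least 10 counts in every library. The genes that missed the rule were Wnt1, Wnt3, Wnt3a, Wnt7a, Dkk1 and Rspo2, with at most 7 counts in any library. Wnt2b, Wnt16, Rspo3, Sfrp5 and Notum met it but were too low to be tested.

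The libraries came from tumors of MMTV-PyMT mice, in which the MMTV promoter drives the polyoma middle T oncogene in mammary epithelium, and the study asked how tumor cells with and without the Notch ligand Dll1 differ. All mice were on a C57BL/6 background and carried PyMT together with a Dll1 reporter, which was a GFP knock-in in PyMT; Dll1-GFP mice (mice 1 and 2, below GFP mice) or a BAC-based mCherry transgene in PyMT; Dll1-mCherry mice (mice 3 and 4, below mCh mice). Cells positive for CD45, CD31 or Ter119 (leukocytes, endothelium and erythroid cells) were sorted away, and the reporter split the remaining cells of each mouse into 1 Dll1+ and 1 Dll1- library. No normal mammary tissue was analysed here, each reporter line was represented by 2 mice, and the age of these mice was not given in the sources used here. Pericytes and fibroblasts carry none of these 3 surface markers and could remain in the sort.

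Wnt proteins are secreted lipid-modified ligands that bind Frizzled receptors together with the co-receptors Lrp5 or Lrp6. In the canonical branch this stops the Axin-containing destruction complex from degrading beta-catenin (Ctnnb1), which then acts on genes with TCF/LEF factors. R-spondins bind Lgr receptors and remove the ligases Rnf43 and Znrf3, which otherwise take Frizzled receptors off the membrane, while Sfrp, Dkk and Wif proteins hold the signal back outside the cell. In the mammary gland Wnt signals are known for supporting stem and basal cells and for side-branching.

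In the sort itself, Dll1 was higher in the Dll1+ than in the Dll1- library of each of the 4 mice, at 87.5 and 138 against 7.61 and 13.7 CPM in GFP mice and at 203 and 250 against 34.7 and 50.3 in mCh mice (CPM, counts scaled to a common library size after TMM normalization). Total counts were 27301396 to 123907626 per library, and 3 counts correspond to 0.0242 to 0.11 CPM. Luminal epithelial markers were high in all libraries (Epcam 899 to 1240 CPM, Krt8 1898 to 3633 CPM). The Dll1- libraries of the mCh mice stood apart by their stromal genes. The summed level of 11 fibroblast markers was 8431 and 24174 CPM there, 3719 and 3866 CPM in the Dll1+ libraries of the same mice, and 1251 to 1464 CPM in the 4 GFP libraries. All 11 were detected, with the collagen gene Col1a1 at 362 to 6581 CPM, and Pecam1 (endothelium) was at 42.6 and 98.2 CPM in the Dll1- libraries of mCh mice and 13.7 to 24.9 CPM in the others. Ptprc (leukocytes) was at 10.4 and 12.7 CPM in those libraries and 2.88 to 6.39 CPM in the others. Proliferation markers were lower in Dll1+ cells, 10 of 10 in GFP and in mCh mice, with summed levels of 279 to 286 CPM in Dll1+ and 620 to 642 CPM in Dll1- cells of GFP mice, and 473 to 520 against 831 to 1015 CPM in mCh mice. Basal markers were higher in the sum in Dll1+ cells of each mouse, at 249 to 429 against 161 to 196 CPM and at 1595 to 1622 against 484 to 829 CPM. The part of these cell mixtures in the values that follow was not tested, and in bulk RNA fewer cells of a type and less RNA per cell cannot be told apart.

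Promoter sequences are shown first for the 4 members that passed the test in both reporter lines (Wnt4, Axin2, Nkd2 and Tcf7l1, described below). The 2 ligands whose promoters held a TCF/LEF core are shown with them. The sequences come from RefSeq promoters of build GRCm38.p6, available for 37 of the 55 listed genes. They are written 5′ to 3′ on the strand of the gene, without bases that lie inside the annotated gene except in the short windows. Capitals mark a TCF/LEF core, CTTTGAT, or a core of the Notch effector RBPJ, GTGGGAA, each searched on both strands. For Axin2 and Nkd2 the 250 bases before the start are given (chr11:108920099-108920348, + strand, and chr13:73847632-73847881, - strand). For Wnt4 these are the 104 bases before the annotated gene (chr4:137277385-137277488, + strand), and for Tcf7l1 a 29-base window around its RBPJ core (chr6:72789083-72789111, - strand). That Tcf7l1 window lies before the RefSeq start but inside the annotated gene, and the 41 bases before the gene held 0 cores. The Wnt11 window (chr7:98835050-98835078, + strand) lies just before the gene, and the Wnt5b window (chr6:119449440-119449468, - strand) lies before an internal start, inside the longest annotated form.
Axin2: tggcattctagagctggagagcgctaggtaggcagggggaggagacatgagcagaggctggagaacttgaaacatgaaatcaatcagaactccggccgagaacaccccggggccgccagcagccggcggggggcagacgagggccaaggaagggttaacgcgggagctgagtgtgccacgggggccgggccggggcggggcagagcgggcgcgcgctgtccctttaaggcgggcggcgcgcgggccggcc
Nkd2: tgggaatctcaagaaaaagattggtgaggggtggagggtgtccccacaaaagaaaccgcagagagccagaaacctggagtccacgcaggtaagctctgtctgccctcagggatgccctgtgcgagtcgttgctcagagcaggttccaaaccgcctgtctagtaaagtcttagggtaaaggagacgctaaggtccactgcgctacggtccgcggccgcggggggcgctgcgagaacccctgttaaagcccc
Wnt4: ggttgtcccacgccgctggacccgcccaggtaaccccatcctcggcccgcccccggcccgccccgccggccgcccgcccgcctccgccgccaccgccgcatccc
Tcf7l1: gctgggcccgcTTCCCACagagccacgcc
Wnt11: gacgtgggcggATCAAAGcgacggtccgc
Wnt5b: agtaagtctctCTTTGATctgctccctgt

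The TCF/LEF core was found in 2 of 37 member genes (5.41%) and in 4.29% of all 27025 genes with such a promoter, and the RBPJ core in 3 of 37 (8.11%) and in 7.25% of all genes. The third RBPJ match besides Tcf7l1 and Lef1 was in Wnt9a. Neither core was found in the printed bases of Axin2, Nkd2 or Wnt4. The search for cores covered 250 bases before to 50 bases after each start. The Axin2 and Nkd2 sequences had a GC content of 69.2% and 58.4%, and the median of all promoters was 52.4%. The 104 bases of Wnt4 had 83.7%, and the 41 bases before the Tcf7l1 gene had 82.9%. No window held both cores. These matches describe letters in a window and no binding was measured.

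To see which parts of the pathway these cells expressed, levels were set per kb of the longest coding transcript (mean CPM per kb over the 8 libraries). Ctnnb1 was the highest member at 190 CPM per kb, with a range of 143 to 215 over the libraries. The co-receptor Lrp5 (47.5), the Wnt export receptor Wls (39) and the ligand Wnt5b (30.5) followed, and the ranges of Wls (32.3 to 42.8) and Wnt5b (21.6 to 42.7) overlapped. The ligase Rnf43 (21.8) and the R-spondin receptor Lgr6 (20.5) came next, then Axin1 (17), Fzd7 (16.3), Wif1 (16.1) and Sfrp1 (15.6). Among ligands, Wnt5b was followed by Wnt7b (6.86) and Wnt5a (3.93), and 4 of the 12 ligand members had means under 0.31 CPM per kb (Wnt10a, Wnt10b, Wnt2b and Wnt16). The R-spondin genes were low, Rspo1 at 0.893 and Rspo3 at 0.0899 CPM per kb. Tcf7l2 was the highest TCF/LEF factor (12.8) and Lef1 the lowest (0.368).

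**Figure D1:**
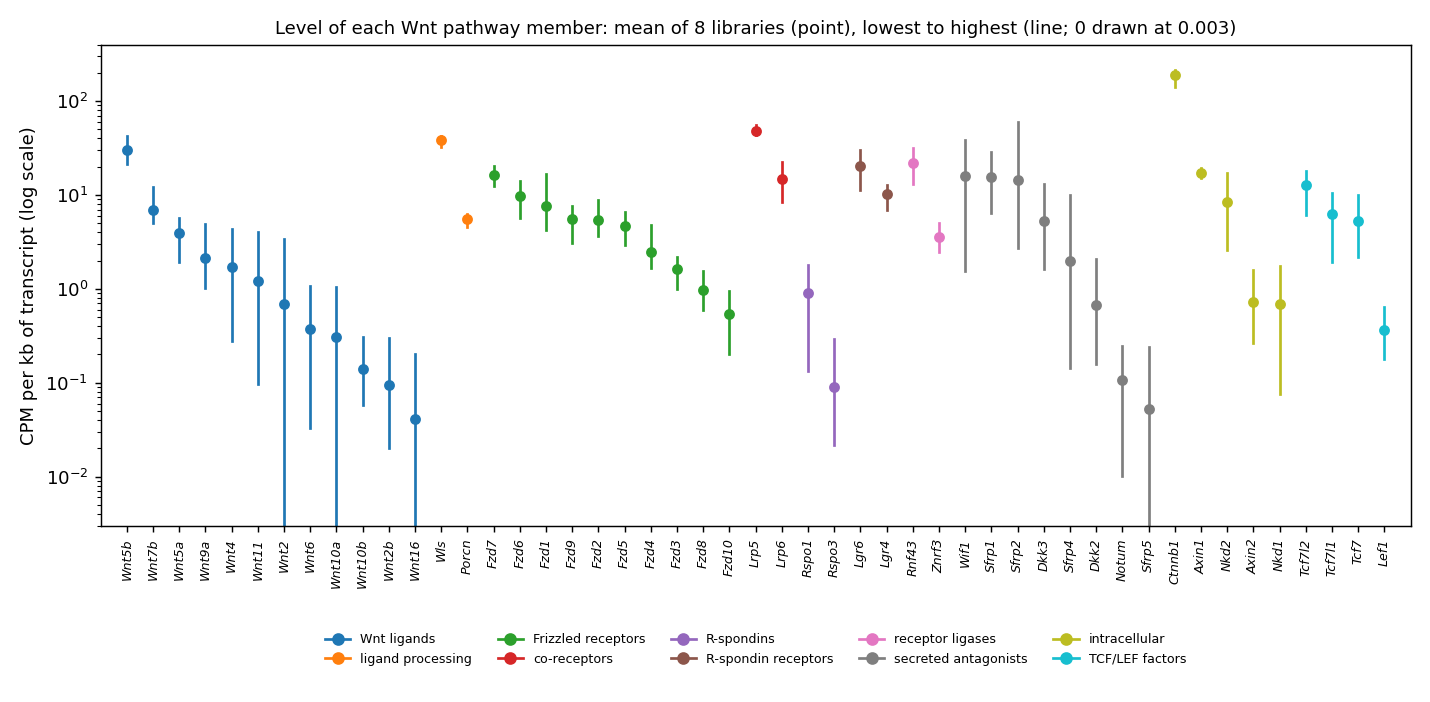
Level of each of the 49 members in CPM per kb of transcript on a log axis, as the mean of 8 libraries (point) and the range over them (line), grouped by role. Ctnnb1 at 190 lies above every other member, and the wide lines of Wnt2, Sfrp4 and Wif1 show members whose level differed widely between libraries.

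The first comparison asked how these members differed between Dll1+ and Dll1- cells of the same mouse, in a model of Dll1 status and mouse (edgeR's quasi-likelihood test, with Benjamini-Hochberg adjustment over all 18322 genes tested and a threshold of 0.05). Of 44 members tested, 10 passed, 5 lower and 5 higher in Dll1+ cells. This is 22.7% of the members, and 14.0% of all genes passed (6.98% higher and 7.04% lower). The ligand Wnt4, the intracellular members Axin2, Nkd1 and Nkd2 and the factor Tcf7l1 were lower, by 0.92 to 2.05 on the log2 scale. Sfrp1, Fzd3, Tcf7l2, Lrp6 and Rnf43 were higher, by 0.28 to 0.79. Without mouse 1 or without mouse 3, 2 members passed, while 4 passed without mouse 2 and 9 without mouse 4. The median log2 fold change was -0.15 over the members and -0.00 over all genes. Within mice, 20 of 44 members had the same direction in 4 of 4 mice (8 higher and 12 lower), a pattern shown by 41.3% of all genes.

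**Figure D2:**
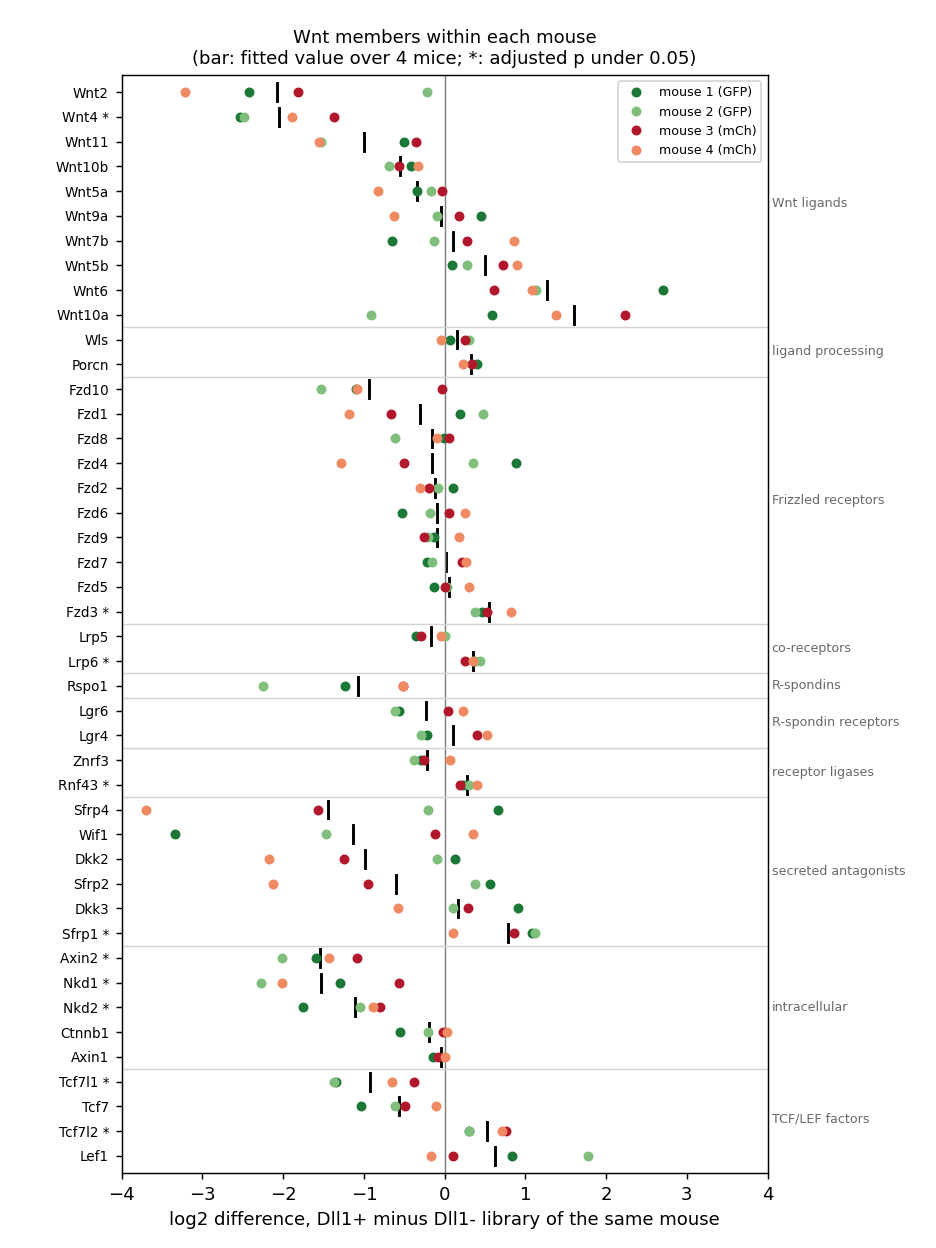
Dll1+ minus Dll1- difference of each mouse on the log2 scale (points) for the 44 tested members, with the fitted value over 4 mice (black bar) and an asterisk at an adjusted p under 0.05. Axin2, Nkd1, Nkd2, Wnt4 and Tcf7l1 lie below 0 in every mouse, and Sfrp2, Sfrp4, Dkk2, Fzd1 and Fzd4 lie lower in mCh mice than in GFP mice.

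Among the ligands, Wnt4, which acts in hormone-driven side-branching of the mammary gland, showed the largest change of those that passed. Its CPM was 9.45 and 6.65 in Dll1- and 1.6 and 1.16 in Dll1+ cells of GFP mice 1 and 2, and 18 and 11.3 in Dll1- and 6.96 and 3.02 in Dll1+ cells of mCh mice 3 and 4. Each mouse had less Wnt4 in its Dll1+ library, while the highest Dll1+ value, in mouse 3, lay above the lowest Dll1- value, in mouse 2. The log2 fold change was -2.05 (SE 0.23), that is 4.14-fold lower, with an adjusted p of 0.00798 in edgeR, and it stayed past the threshold when any mouse was left out (adjusted p 0.0176 to 0.0438). No other ligand passed over the 4 mice. Wnt11 (SE 0.28, adjusted p = 0.0654 in edgeR, 2-fold lower) and Wnt2 (-2.08, SE 0.60, 0.0743) had negative values in 4 of 4 mice, and Wnt5b (0.50, SE 0.15, 0.0791) and Wnt6 (1.27, SE 0.39, 0.0818) positive ones. Wnt5a, a mostly non-canonical ligand, was at 31.9 to 40.3 CPM in GFP and 13.5 to 23.9 CPM in mCh mice, with a fitted value of -0.34 (SE 0.14). The untested Wnt2b had a mean log2 difference of -1.02 and the same sign in 4 of 4 mice, from 3 to 48 counts per library.

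Axin2, a scaffold of the destruction complex that is itself induced by canonical Wnt signals and limits them, had 3.65 and 4.61 CPM in Dll1- and 1.19 and 1.12 CPM in Dll1+ cells of GFP mice, and 3.1 and 6.8 against 1.43 and 2.5 CPM in mCh mice. All 4 Dll1+ values lay below all 4 Dll1- values, the only tested member of which this was true in that direction, and 3.33% of all genes showed it. Its log2 fold change was -1.54 (SE 0.20), 2.91-fold lower, with an adjusted p of 0.0109 in edgeR and of 0.0551 without mouse 1. An antisense gene, Gm11670, overlaps the span of Axin2, introns included. Whether their transcripts share bases was not examined, and whether the counting used strand was not given in the sources used here. It is therefore not known whether reads of both can be told apart. The same holds for Tcf7l1, Tcf7, Rspo1, Sfrp2, Wnt5a, Wnt6, Wnt7b, Lef1, Ctnnb1, Rspo3 and Notum, which also overlap antisense genes, and for Wnt5b, Nkd2, Wnt11, Fzd3 and other members that overlap another gene on the opposite strand.

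The naked cuticle genes Nkd1 and Nkd2, which inhibit the Wnt transducer Dishevelled, moved the same way. Nkd2 had 39 and 21.6 CPM in Dll1- and 11.5 and 10.4 CPM in Dll1+ cells of GFP mice, and 52.3 and 68.4 against 30 and 36.9 CPM in mCh mice. It was lower in each Dll1+ library than in its Dll1- partner, but the groups overlapped, since the Dll1+ values of mCh mice lay above the Dll1- value of mouse 2. Fitted, this was -1.11 (SE 0.17, adjusted p = 0.017 in edgeR), and the adjusted p was 0.0704 without mouse 2 and 0.0552 without mouse 3. Nkd1 was scarcer, at 1.67 and 1.66 against 0.663 and 0.313 CPM in GFP mice and 5.47 and 7.13 against 3.71 and 1.73 CPM in mCh mice. The fitted log2 value was -1.53 (SE 0.34, adjusted p = 0.038 in edgeR), and the call was lost when any of the 4 mice was left out (0.0568 to 0.116). Axin1 and Ctnnb1, the constitutive scaffold and the transducer, had fitted values of -0.05 (SE 0.05) and -0.19 (SE 0.11), which did not pass.

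Of the TCF/LEF factors, Tcf7l1 and Tcf7l2 moved in opposite directions. Tcf7l1, known mainly as a repressor of Wnt target genes, had 18.9 and 15.2 CPM in Dll1- and 7.46 and 5.86 CPM in Dll1+ cells of GFP mice, and 30 and 31.7 against 23 and 20.2 CPM in mCh mice. Tcf7l2 had 54.5 and 53.9 against 67.3 and 66.4 CPM in GFP mice and 22.5 and 29.3 against 38.2 and 47.9 CPM in mCh mice. In every mouse Tcf7l1 was lower and Tcf7l2 higher in the Dll1+ library. The log2 fold changes were -0.92 (SE 0.19, adjusted p = 0.0368 in edgeR) for Tcf7l1 and 0.52 (SE 0.10, adjusted p = 0.0284 in edgeR) for Tcf7l2. Tcf7l1 did not pass when any mouse was left out (0.0536 to 0.117), and Tcf7l2 passed without mouse 4 only (0.0489, otherwise 0.0551 to 0.1). Tcf7 had -0.56 (SE 0.16, 0.0656), negative in 4 of 4 mice, and Lef1 was scarce at 0.624 to 2.24 CPM.

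Among receptors, Fzd3 was higher in Dll1+ cells, at 27.9 and 26.7 against 20.2 and 20.5 CPM in GFP mice and at 22.1 and 22.2 against 15.3 and 12.6 CPM in mCh mice. Its 4 Dll1+ values lay above its 4 Dll1- values, as did those of Porcn, the acyltransferase that lipid-modifies Wnt proteins, and 2.74% of all genes showed this. Fzd3 changed by 0.55 on the log2 scale (SE 0.09, adjusted p = 0.018 in edgeR, 0.0697 without mouse 1 and 0.0786 without mouse 3), and Porcn had 0.33 (SE 0.09, 0.0592; this gene was singled out after its values were seen). The other 9 Frizzled genes did not pass, with fitted values from -0.94 (Fzd10) to 0.05 (Fzd5), and Fzd7, the most abundant of them, was at 0.02 (SE 0.10). The co-receptor Lrp6 was higher by 0.35 (SE 0.06, adjusted p = 0.0172 in edgeR), at 208 and 207 against 162 and 153 CPM in GFP mice and 93.6 and 116 against 78.9 and 91.4 CPM in mCh mice. It was lower in both mCh mice than in either GFP mouse, whichever the sort, and it passed the threshold without mouse 4 (0.033) but not without the others (0.0627 to 0.0725). Its partner Lrp5 had a fitted value of -0.17 (SE 0.08, 0.209).

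The ligase Rnf43, which removes Frizzled receptors, was slightly higher, at 117 and 138 against 99.7 and 112 CPM in GFP mice and 82.1 and 74.6 against 71.9 and 56.7 CPM in mCh mice. Each mouse had the higher value in Dll1+ cells, and the fitted value was 0.28 (SE 0.06, adjusted p = 0.0296 in edgeR), which did not pass when any mouse was left out (0.0547 to 0.0953). Its homolog Znrf3 had -0.22 (SE 0.09, 0.156). Of the secreted antagonists, Sfrp1, which binds Wnt proteins, was at 61.8 and 61.7 against 29.1 and 28.4 CPM in GFP mice and at 80.8 and 124 against 44.5 and 115 CPM in mCh mice. Mouse 4 had high Sfrp1 in both libraries and the smallest difference, 0.11 on the log2 scale, where the other mice had 0.86 to 1.12. Fitted over all mice, the value was 0.79 (SE 0.18, adjusted p = 0.049 in edgeR), with an adjusted p of 0.00627 without mouse 4 and of 0.139 to 0.185 without each of the others.

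**Figure D3:**
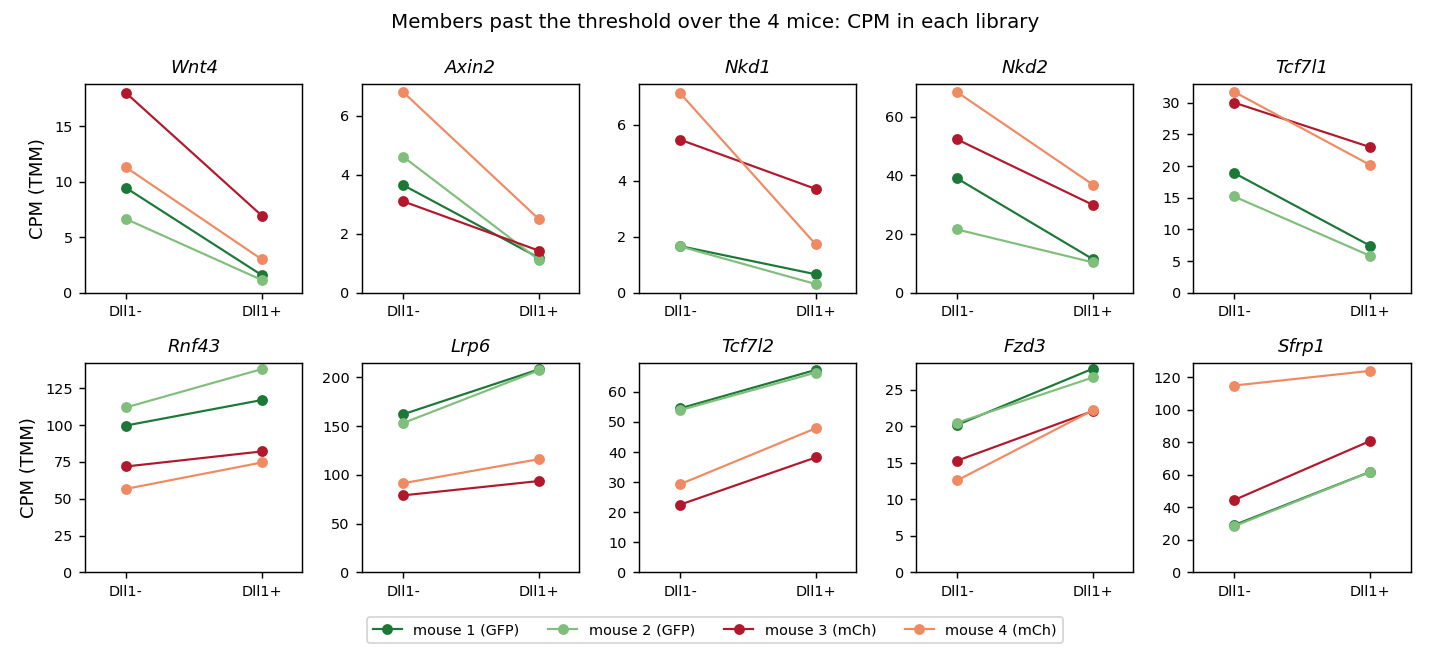
CPM of the 10 members past the threshold over the 4 mice, with a line joining the Dll1- and Dll1+ library of each mouse (green, GFP mice; red and orange, mCh mice) and each axis starting at 0. Every line falls for Wnt4, Axin2, Nkd1, Nkd2 and Tcf7l1 and rises for Rnf43, Lrp6, Tcf7l2, Fzd3 and Sfrp1, and the GFP and mCh mice differ in level for most of these genes.

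The comparison was then made within each reporter line. In GFP mice 9 of 44 members passed, 2 higher and 7 lower (20.5%, where 9.13% of all genes passed, 4.29% higher and 4.84% lower). In mCh mice 12 passed, 5 higher and 7 lower (27.3%, where 11.8% of all genes passed, 5.51% higher and 6.25% lower). Wnt4, Axin2, Nkd2 and Tcf7l1 passed in both, all lower. The share of all genes that passed in both lines was not determined, so this overlap cannot be read as particular to the members. Both tests came from the same model of all 8 libraries with a shared estimate of the spread, so they are not independent. Fitted alone, the mCh mice left 0 members past the threshold. Of 10 alternatives, the mCh call was kept in 8 for Wnt4, 5 for Axin2, 6 for Nkd2 and 5 for Tcf7l1. Their log2 fold changes were -2.54 (SE 0.21) in GFP and -1.63 (SE 0.19) in mCh mice for Wnt4, -1.84 (SE 0.25) and -1.28 (SE 0.23) for Axin2, -1.41 (SE 0.18) and -0.85 (SE 0.16) for Nkd2, and -1.36 (SE 0.12) and -0.52 (SE 0.11) for Tcf7l1. The values were larger in size in GFP mice for each of the 4, and the test of the difference did not pass for any (adjusted p 0.124 to 0.55 in edgeR). The GFP calls were lost when either GFP mouse was left out, which left 1 mouse in that line. Fewer mCh calls remained without mouse 4 or without mouse 2.

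Past the threshold in GFP but not in mCh mice was Rspo1, the R-spondin of luminal mammary cells, at 1.36 and 1.32 against 0.558 and 0.246 CPM (-1.82, SE 0.37, adjusted p = 0.0329 in edgeR). Lgr6, an R-spondin receptor, fell from 197 and 200 to 133 and 130 CPM (-0.59, SE 0.08, 0.0116), and Tcf7 from 11.2 and 8.87 to 5.41 and 5.77 CPM (-0.83, SE 0.17, 0.0338). In these 2 mice Sfrp1 rose by 1.10 (SE 0.19, 0.0336) and Lrp6 by 0.40 (SE 0.08, 0.0299). In mCh mice both had the same sign without passing, Sfrp1 at 0.49 (adjusted p = 0.157 in edgeR) and Lrp6 at 0.30 (0.0573). The corresponding mCh values of Lgr6 were 135 and 75.1 CPM in Dll1- and 139 and 88.2 CPM in Dll1+ cells, so that the sorted fractions lay close within each mCh mouse.

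In mCh but not in GFP mice the ligands Wnt5b, Wnt10a and Wnt2 and the antagonist Dkk2 passed. Wnt5b rose from 61.4 and 53.1 to 101 and 98.9 CPM (0.81, SE 0.09, adjusted p = 0.00881 in edgeR), and in GFP mice it was at 72.8 and 51.1 against 77.3 and 61.9 CPM. Wnt10a rose from 0.368 and 0.958 to 1.89 and 2.55 CPM (1.90, SE 0.45, 0.0455), a call kept in 2 of 7 alternatives, and had at most 5 counts in any GFP library. Wnt2 fell from 2.36 and 7.7 to 0.641 and 0.792 CPM (-2.58, SE 0.57, 0.0468) and Dkk2 from 5.21 and 7.76 to 2.17 and 1.69 CPM (-1.72, SE 0.29, 0.0207). Both also lay below 1 CPM in every GFP library. Fzd1 fell from 43.2 and 70.7 to 27.2 and 31 CPM (-0.93, SE 0.15, 0.0192), and Lgr4, which passes R-spondin signals on, rose from 35.3 and 40.3 to 46.6 and 58.4 CPM (0.47, SE 0.08, 0.022). Fzd3 (0.67) and Tcf7l2 (0.74) were also past the threshold. In GFP mice both had the same sign without passing, Fzd3 at 0.42 (adjusted p = 0.0702 in edgeR) and Tcf7l2 at 0.30 (0.0643). With Wnt2, Dkk2 and Fzd1, 5 of 11 fibroblast and 5 of 7 pericyte markers were lower in Dll1+ cells of mCh mice, with list medians of -2.20 and -2.04, and 0 of either list passed in GFP mice by edgeR or by DESeq2 (0 and 3 at an unadjusted p under 0.05), with medians of -0.10 and 0.15. Markers of the cells that the sort was to remove were lower as well in Dll1+ cells of mCh mice, 6 of 8 immune (median -1.17), 4 of 5 erythroid (-1.39) and 3 of 8 endothelial markers (-1.38), and in GFP mice 0 immune, 1 erythroid and 0 endothelial markers passed (1, 2 and 0 at an unadjusted p under 0.05 in edgeR). The number of fibroblast markers that passed in mCh mice was 2 without mouse 2, 3 without mouse 1, 11 without mouse 3 and 9 without mouse 4. Sfrp2 (-1.54, 0.0552) and Sfrp4 (-2.63, 0.0823), secreted antagonists, had mCh values of the same sign without passing.

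Whether the Dll1+ effect differed between the reporter lines was tested directly, as the mCh effect minus the GFP effect. By edgeR 0 of 44 members and 0.0710% of all genes passed (0.00546% with a higher and 0.0655% with a lower value in mCh mice). At an unadjusted p under 0.05 in edgeR there were 16 of 44 members and 2420 of all 18322 genes. DESeq2 called 7 members (Sfrp4, Sfrp2, Wnt5b, Lgr6, Fzd1, Fzd4 and Lgr4), and 3.27% of the genes to which it gave an adjusted p. The 2 members with the lowest p in edgeR were the R-spondin receptors Lgr4 (0.72, SE 0.12, adjusted p = 0.0879) and Lgr6 (0.73, SE 0.12, adjusted p = 0.0881). For Lgr4 the within-mouse log2 differences were -0.22 and -0.29 in GFP mice and 0.40 and 0.53 in mCh mice, and for Lgr6 -0.56 and -0.62 against 0.04 and 0.23, so that the signs were opposite in the 2 lines. Leaving out a mouse left only 1 mouse in its line, so such fits cannot show whether the members differed more than other genes.

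Levels between the reporter lines were compared last, 2 mCh mice against 2 GFP mice, separately in Dll1- and Dll1+ cells. The line, the mouse cohort and any difference in tumor or sort between them cannot be told apart. In Dll1- cells 22 of 44 members passed, 13 higher and 9 lower in mCh mice (50%, where 36.6% of all genes passed, 18.7% higher and 17.9% lower), and in Dll1+ cells 16 passed, 11 higher and 5 lower (36.4%, where 30.6% of all genes passed, 15.2% higher and 15.4% lower). In both sorted fractions 6 were higher and 5 lower in mCh mice. The share of all genes that passed in both fractions was not determined, so these counts cannot be read as particular to the members. Leaving out either GFP mouse left 0 members past the threshold in both comparisons. Each group had 2 libraries, and the spread was estimated over all 8, with the 2 libraries of each mouse counted as separate samples.

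Of the 13 members higher in Dll1- cells of mCh mice, 5 were secreted antagonists and 3 were ligands. Sfrp4 was at 11.7 and 41.1 CPM there and at 0.58 and 1.56 CPM in Dll1- cells of GFP mice (4.62, SE 0.74, adjusted p = 0.0051 in edgeR). Sfrp2 was at 32.6 and 120 against 5.46 and 7.76 CPM (3.52, SE 0.63, 0.00732), and Wnt2 at 2.36 and 7.7 against 0.171 and 0.451 CPM (3.99, SE 1.08, 0.0286). For these 3 the value of mouse 4 was well above that of mouse 3, and that library also had the highest fibroblast sum. Dkk2 (3.09), Wnt6 (2.74), Dkk3 (2.48), Nkd1 (1.91), Fzd1 (1.55), Sfrp1 (1.46), Nkd2 (0.99), Fzd2 (0.91) and Tcf7l1 (0.86) were higher as well. All 11 fibroblast markers were higher in the same comparison, with a median of 3.86, and so were 8 of 8 endothelial (2.44), 8 of 8 immune (2.07), 4 of 5 erythroid (3.85) and 5 of 7 pericyte markers (2.96). In Dll1+ cells 7 of 11 fibroblast markers were higher, with a median of 1.61, and Sfrp2, Sfrp4 and Wnt2 did not pass there. Wnt11 was higher in mCh mice by the same amount in both fractions, 3.37 (SE 0.45) in Dll1- and 3.37 (SE 0.47) in Dll1+ cells, with at most 1.04 CPM in any GFP library and 4.7 to 13.9 CPM in mCh libraries.

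In Dll1+ cells Nkd1 (2.51), Rspo1 (2.34), Wnt4 (1.86), Tcf7l1 (1.70) and Dkk3 (1.66) were higher in mCh mice. So were Nkd2 (1.61), Tcf7 (1.59), Dkk2 (1.33) and Ctnnb1 (0.46). Wnt10a passed as well, at 1.89 and 2.55 CPM (124 and 142 counts) against 0.174 and 0 CPM (5 and 0 counts). It met the count rule through mCh libraries only, so its call between the lines carries no weight of its own. The members lower in mCh mice in both fractions were Wnt5a, Lrp6, Fzd5, Rnf43 and Tcf7l2, by 0.63 to 1.07. Fzd5 was at 20 and 24 against 39.1 and 45.1 CPM in Dll1- cells and at 20 and 29.6 against 35.7 and 46 CPM in Dll1+ cells. Lgr4, Fzd7, Znrf3 and Fzd3 were lower in Dll1- cells and did not pass in Dll1+ cells. A difference of the line effect between the fractions is the same contrast as the difference between reporters given above, of which 0 passed.

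**Figure D4:**
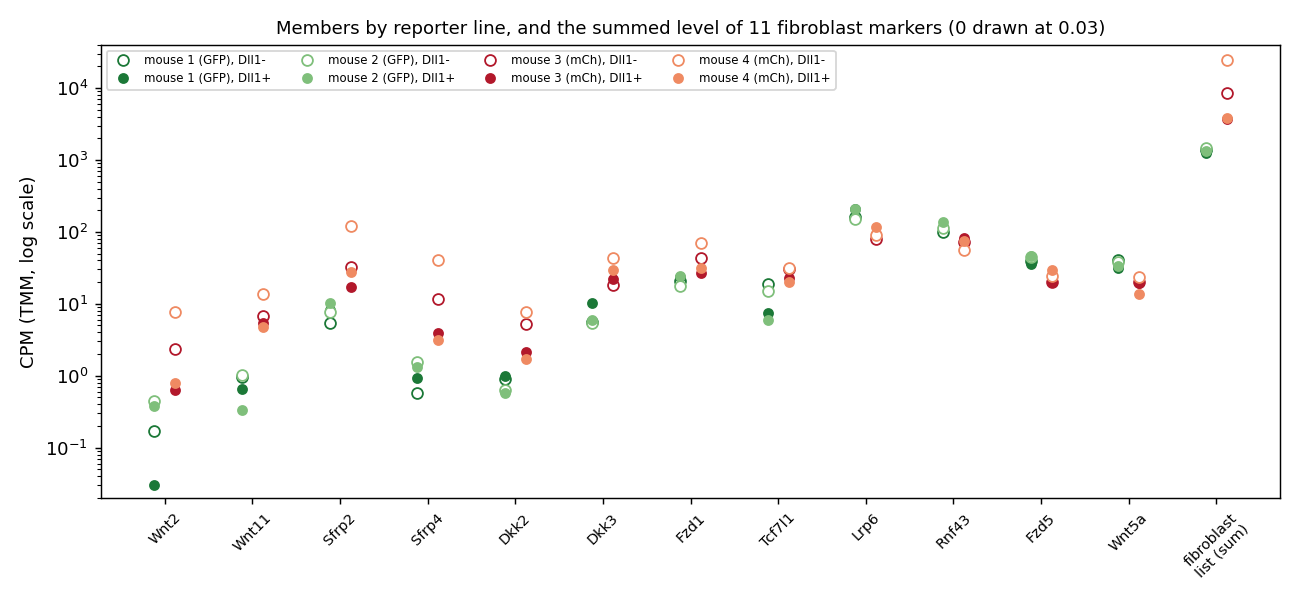
CPM of 12 members by reporter line on a log axis (left, GFP mice in green; right, mCh mice in red and orange; open points Dll1- and filled points Dll1+ libraries), and the summed CPM of 11 fibroblast markers at the far right. Wnt2, Sfrp2, Sfrp4 and the fibroblast sum are highest in the Dll1- library of mouse 4, and Lrp6, Rnf43, Fzd5 and Wnt5a lie higher in GFP mice.

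Other genes of the pathway were described from lists that did not draw on the members. Of 23 genes of the destruction complex and its Dishevelled inputs 0 passed over the 4 mice by edgeR (3 at an unadjusted p under 0.05, and 3 by DESeq2, all higher), with a median log2 fold change of -0.00. Of 20 nuclear cofactors 1 passed, the chromatin remodeler Smarca4 (-0.32, SE 0.07, adjusted p = 0.0356 in edgeR), and 0 passed without mouse 1, mouse 2 or mouse 3. Among 19 planar polarity genes and Ror or Ryk receptors, Fuz (0.35) and Prickle3 (0.42) rose, and Ror2, a receptor for Wnt5a, fell by 1.38 (SE 0.26, 0.0263), from 2.39 and 1.25 to 0.976 and 0.582 CPM in GFP mice and from 8.46 and 12.9 to 4.7 and 2.77 CPM in mCh mice. Those 3 are 15.8% of the list, where 14.0% of all genes passed. Among 20 other modulators 4 passed (20%). The secreted Wnt and BMP antagonist Sostdc1 rose by 2.21 (SE 0.29, 0.0109), with 0.239 and 0.243 against 1.05 and 0.738 CPM in GFP mice and 0.577 and 0.793 against 4.35 and 2.93 CPM in mCh mice. Ndp, a ligand of Fzd4, rose by 0.83, the glypican Gpc4 by 0.33, and the membrane inhibitor Apcdd1 fell by 1.06. Igfbp4, a secreted binding protein named after its values were seen, was the only gene of this list past the threshold for the difference between reporters (-1.40, SE 0.12, adjusted p = 0.0377 in edgeR). It rose in GFP mice, from 28.6 and 30.5 to 46.8 and 50.5 CPM, and fell in mCh mice, from 176 and 440 to 119 and 255 CPM, and the difference did not pass without mouse 1 or without mouse 2.

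Of 23 genes known as Wnt targets in other tissues, 3 were higher and 2 lower (21.7%, where 14.0% of all genes passed), with a median of -0.09. Within the lines, 3 of 23 passed in GFP mice (13%, where 9.13% of all genes did) and 11 of 23 in mCh mice, 4 higher and 7 lower (47.8%, where 11.8% of all genes did). Among those lower in mCh mice were Procr, a marker of mammary stem cells (-2.24, SE 0.25, adjusted p = 0.0095 in edgeR), and the mesenchymal factor Twist1 (-1.79, SE 0.25, 0.0144), both named after their values were seen. Procr was at 7.01 and 17.3 against 1.95 and 2.77 CPM in mCh mice and at 0.832 to 1.08 CPM in GFP mice, so that its level was high in the same Dll1- libraries as the fibroblast sum. With a mouse left out, 5 to 9 targets passed in mCh mice (5 without mouse 4), and 0 passed in GFP mice without mouse 1 or mouse 2. Sox9 rose by 0.54 (SE 0.08, adjusted p = 0.015 in edgeR) and Vegfa by 0.50 (SE 0.11, 0.0408). The ephrin receptor Ephb2 fell by 1.19 (SE 0.18, 0.0148) and the receptor Tnfrsf19 by 1.18 (SE 0.18, 0.0181), the latter from 41.1 and 43.8 to 16.1 and 12.9 CPM in GFP mice and from 30.7 and 35.8 to 15.9 and 22.3 CPM in mCh mice. Ephb3, of the same family as Ephb2, rose by 0.35. Leaving out mouse 1 or mouse 3 left 1 target past the threshold, and 3 passed without mouse 2. The other modulators fell to 0 calls without mouse 1 or mouse 3 and to 1 without mouse 2, and the planar polarity list to 0 without mouse 2 or mouse 3 and to 1 without mouse 1. DESeq2 called 9 targets, 8 other modulators and 5 nuclear cofactors over the 4 mice, and 26.4% of the genes to which it gave an adjusted p.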

How the data were processed

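RNA was measured in 8 libraries of sorted tumor cells from 4 mice. Salmon was run by the authors against the GENCODE M20 transcripts (GRCm38.p6), and tximport gave one value per gene, so that the deposited values are estimated counts per gene, not normalized and given as whole numbers. Levels per kb use 1 transcript length per gene and are approximate. Salmon can split reads among the similar Fzd or Wnt genes.

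Tests used edgeR 4.0.16 under R 4.3.3 (TMM, filterByExpr on Dll1 status, robust quasi-likelihood fit). Models were Dll1 status and mouse, mouse with a Dll1 effect per reporter, and 4 groups without mouse, the last for the reporter lines. DESeq2 1.42.0 was an alternative, with RLE size factors, other filters on low counts, no mouse block, fits of 1 reporter, and fits without each of the mice. CPM per library are TMM-normalized, and log2 differences per mouse used a prior count of 2. Each SE of an edgeR value is its absolute log2 fold change divided by the square root of the quasi-likelihood F. It thus restates that test and is not a separate measure of precision. Both libraries of a pair came from the same mouse by the mouse label. In fits with a mouse term, p-values measure how the Dll1+ minus Dll1- difference varies between mice. The reporter line fits had no mouse term, so the 2 libraries of each mouse counted as separate samples. The deviations of paired libraries from their group means correlated at -0.05 in GFP and 0.55 in mCh mice. The code was tested on simulated data. Intervals from counts cover counting error only.

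The members and gene lists were chosen with earlier results of these data known. Members were named if past the threshold in any comparison, if the most abundant of their role, if of the same sign in 4 mice with a mean log2 difference of at least 1, and list genes if among the 4 of lowest p over the 4 mice. Others were named after their values were seen (Porcn, Lef1, Wif1, Ephb3, Procr, Twist1, Igfbp4 and members given for their place in a range, an order of levels, the tests of the difference or the counts). Gene positions come from GENCODE M21 and promoters from RefSeq.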

Additional observations from a re-analysis of the deposited data

How the results depend on the processing

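Of 44 members, 10 passed over the 4 mice, and 9 with RLE size factors, 11 without a filter, 10 with at least 10 counts in every library and 16 with DESeq2, which kept all 10. Not every setting tested 44 members. All 49 entered the fits without a filter, and 40 those with at least 10 counts in every library. In fits on fewer libraries the filter was run anew, so the number tested could differ. DESeq2 also called 26.4% of the genes to which it gave an adjusted p, where 14.0% of all genes passed in edgeR. For most other alternatives the share of all genes is not given, so their counts show only how stable the calls were. With each mouse left out in turn 2 to 9 passed. Wnt4 passed in 9 of its 10 alternatives and Axin2 in 8 of 10. Without the mouse block 0 passed, and with the reporter line in place of the mouse, an alternative added after the data were seen, 6 did, all of them among the 10. In GFP mice 9 passed, 17 without a filter, 1 without the mouse block and 0 to 14 with a mouse left out. In mCh mice 12 passed, 19 without a filter, 0 without the mouse block, 0 with that reporter fitted alone and 6 to 12 with a mouse left out. For the difference between reporters 0 passed, 7 with DESeq2, 9 without a filter, 0 without the block and 0 to 7 with a mouse left out. Between the lines 22 passed in Dll1- and 16 in Dll1+ cells, with 0 to 28 and 0 to 21 when a mouse was left out. Where the mouse left out is the only partner of its line, the lone mouse was assumed to vary like the others. Only members that had passed in the main fit of a comparison were followed singly under the alternatives. Of 643 such values, 437 kept their call, 206 kept their direction but not the call, and 0 changed direction. Since these members were picked for passing and refitted on the same libraries, a kept direction was largely fixed in advance. The median log2 value of all genes was -0.01 to 0.07 under each scaling. The causes of these changes were not tested. With 2 mice a line, calls within a line rest on each mouse. The low counts of Wnt2, Wnt6, Wnt10a and Nkd1 in GFP mice limit their precision. For Wnt6 these were 2 and 5 counts in Dll1- and 19 and 19 in Dll1+ libraries.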

Other observations

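Wif1, a secreted antagonist that binds Wnt proteins and was singled out after its values were seen, varied more between mice than between sorted fractions in mCh mice. It was at 88.8 and 30.8 CPM in Dll1- and 8.72 and 11.1 CPM in Dll1+ cells of GFP mice, and at 77.3 and 71.3 CPM in the Dll1- and Dll1+ cells of mouse 3 but 3.57 and 4.55 CPM in those of mouse 4. Its fitted log2 fold change was -2.39 (SE 0.54) in GFP mice and did not pass (adjusted p = 0.0904 in edgeR). In the 4 mice together it was -1.14 (SE 0.67, adjusted p = 0.3 in edgeR). Lef1, also singled out in this way, was at 0.921 and 0.624 CPM in Dll1- and 1.67 and 2.24 CPM in Dll1+ cells of GFP mice and did not pass (1.34, SE 0.36, adjusted p = 0.0689 in edgeR), and was at 0.929 to 1.52 CPM in mCh mice.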
